A study of Mus musculus with 3 samples.

Results

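In unwounded back skin of the mouse, 170 cells carried UMIs of both Tnmd and C6, and they are described here against the remaining fibroblasts of the same skin. A cell barcode counted as a fibroblast if it held at least 1 unique molecular identifier (UMI, a tag that marks 1 captured transcript) of Pdgfra and at most 1 of Ptprc. A Tnmd C6 cell held in addition at least 2 UMIs of Tnmd and at least 1 of C6, with at most 1 of Dpp4, at most 2 of Coch and at most 1 of Grem1. Barcodes needed at least 200 genes and at most 10% mitochondrial UMIs. The 170 cells were 3.34% (95% interval 2.87 to 3.87) of 5087 fibroblast barcodes, which left 4917 others, and they came from 10297 barcodes of that library and 23384 of the series that passed these limits. They were chosen from the same UMIs that are described, so their differences from other fibroblasts are descriptions and carry no test.

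The study used male C57BL/6 mice of 7 to 9 weeks, with no genetic alteration named in the labels. It has 1 droplet 3′ single-cell library each of non-lesional skin, of wound bed 2 days and of wound bed 7 days after a full-thickness excision of 1.0 by 0.5 cm made while hair follicles rested. The labels do not say how many animals went into a library, and with 1 library per condition no difference between libraries can be tested. The title asks about IL1 and WNT signalling in dermal fat lineage cells. The non-lesional library summed to 123088680 UMIs, that of day 2 to 138046172 and that of day 7 to 102345327. Libraries shared 20, 17 and 9 barcodes pairwise, and none of the 170 cells was among them. Intervals are exact 95% counting intervals and cover counting error only.

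Dermal fibroblasts fall into layers and niches: papillary cells under the epidermis, reticular cells that build the dense collagen weave, cells of the follicle's papilla and sheath, and fascia and fat-lineage cells below. Tnmd encodes tenomodulin, a type II membrane protein best known from tendon and ligament, where it marks mature tenocytes. C6 encodes a component of the terminal complement pathway, which assembles the membrane attack complex. Dpp4 and Pi16 are known markers of interstitial progenitor fibroblasts, Coch and Crabp1 are expressed by follicle-associated dermal cells, and Grem1 encodes a secreted BMP antagonist.

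Tnmd and C6 occurred together more often as Tnmd UMIs increased. C6 had a UMI in 28.1% of the 991 fibroblast barcodes with at least 2 Tnmd UMIs (95% interval 25.3 to 31.0), in 8.16% of the 331 with 1 (5.44 to 11.6) and in 2.12% of the 3765 with none (1.69 to 2.64). These barcodes had medians of 14095, 8427 and 9521 UMIs, so the first class was also the deepest; the part of depth was not tested. Applied in order, the limits left 991 barcodes after Tnmd, 278 after C6, 176 after Dpp4, 175 after Coch and 170 after Grem1. Dpp4 was therefore the upper limit that removed most cells. Among the 170, Tnmd ranged from 2 to 21 UMIs with a median of 6, and C6 from 1 to 20 with a median of 4. At the edge, 18 of the cells had exactly 2 Tnmd UMIs and 27 had exactly 1 C6 UMI. Ptprc, which marks blood-derived cells, had no UMI in any of the 170. After every cell was thinned to 3000 UMIs, which kept all 170, Tnmd had a UMI in 74.7% of them and in 14.7% of 4708 other fibroblast barcodes. The same share for C6 was 60.6% in Tnmd C6 cells and 2.55% in others. It was 1.62% in 370 immune barcodes, a class that should lack the gene and so shows the level of free RNA. Tnmd and C6 chose the 170 cells, so their differences from other fibroblast barcodes follow from the rule and support nothing further.

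Values on either side of the limits are given for genes that the rule did not use. The 170 cells had 683 CPM of Cthrc1 (the gene's share of all UMIs of the group, scaled to a total of 1000000), 3535 CPM of Gpx3 and 92995 CPM of Col1a2, and the 98 barcodes that failed only on Dpp4 had 682, 3487 and 94023 CPM. The 36 barcodes with no Tnmd that passed every other limit had 504 CPM of Cthrc1 and 278 CPM of Pltp. The 18 with 1 Tnmd UMI had 428 CPM of Cthrc1 and 282 CPM of Pltp. The 18 Tnmd C6 cells with exactly 2 Tnmd UMIs had 256 CPM of Cthrc1 and 379 CPM of Pltp. The 27 Tnmd C6 cells with exactly 1 C6 UMI had 366 CPM of Cthrc1, 256 CPM of Pltp and 3550 CPM of Gpx3, and the 460 barcodes with no C6 that passed every other limit had 366, 132 and 1656 CPM. Between no C6 UMI and 1, Cthrc1 was thus level, and Pltp and Gpx3 were not. The 143 Tnmd C6 cells with at least 2 C6 UMIs had 728, 290 and 3533 CPM of Cthrc1, Pltp and Gpx3. Cells with exactly 2 Tnmd UMIs had less Cthrc1 and more Pltp than the barcodes just outside that limit. The 152 Tnmd C6 cells with at least 3 had 712 CPM of Cthrc1 and 280 CPM of Pltp.

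The label calls these cells collagen-rich. The cells were chosen with earlier results of these data known, so the collagen values describe the label and are no support for it. Relative to fibroblasts at large their collagen share was higher. Fibril-forming collagens, the types that assemble into the cross-banded fibres of dermis, took a median of 19.6% of the UMIs of a Tnmd C6 cell (quartiles 13.5 and 25.4) and 5.27% of another fibroblast barcode (2.59 and 16.4). The lowest of the 170 cells had 2.03% and the highest 39.6%. They were not the richest fibroblasts of this skin. Their median of 19.6% was below the 24.6% of 316 cells with at least 3 UMIs of Gal, the first of 5 further groups chosen by raw UMIs among the other fibroblast barcodes. In the other 4 groups it was 11.3% in 212 cells with Grem1 and Igfbp2, 3.31% in 1442 cells with Dpp4 and Pi16, 2.55% in 287 cells with Myoc and 1.01% in 132 cells with Coch. Cells that met more than 1 of these 5 rules, 221 in number, were left out of them.

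**Figure D1:**
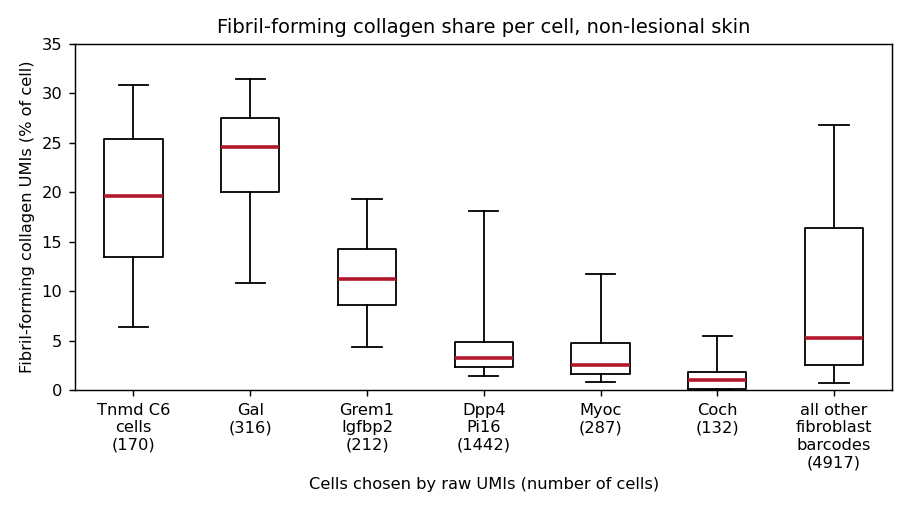
Share of each cell's UMIs from fibril-forming collagen genes in non-lesional skin, in Tnmd C6 cells, in groups chosen by UMIs of other genes and in all other fibroblast barcodes. Boxes give quartiles, the red line the median and whiskers the 5th and 95th percentiles over cells; Tnmd C6 cells lie near 19.6%, below cells with Gal at 24.6% and above all other fibroblast barcodes at 5.27%.

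Col1a2, the second chain of type I collagen, stood at 92995 CPM in Tnmd C6 cells and 46432 CPM in other fibroblast barcodes, a ratio of 2.00. Per cell it had a median of 86380 CPM (quartiles 55498 and 114116) in Tnmd C6 cells and 18427 (9001 and 68003) in the others, so the groups overlapped. Col1a1, its partner chain, reached 73011 CPM in Tnmd C6 cells and 37523 CPM in others, and Col3a1, the type III chain of finer fibres, 37062 and 22238 CPM. On the log2 scale with a pseudocount of 5 CPM, which understates folds of low genes, these differences were 1.00, 0.96 and 0.74. The median gene of Tnmd C6 cells lay 0.30 lower (log2) than in other fibroblast barcodes, or 0.09 lower when UMIs of collagens and Sparc were left out of the totals, and every CPM difference below has to be read against that shift.

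Pdgfrl, Cpz and Kazald1 were given with the label as further marks of these cells. Pdgfrl encodes a secreted protein that resembles the PDGF receptor's outer part. It had a median of 563 CPM over Tnmd C6 cells (quartiles 350 and 768) and 100 over other fibroblast barcodes (0 and 286), and a ratio of 2.80 on summed CPM (95% interval 2.65 to 2.95). Cpz, a secreted carboxypeptidase with a WNT-binding frizzled domain, had 854 CPM in Tnmd C6 cells and 400 CPM in others. Kazald1, which encodes an IGF-binding-like matrix protein, had 275 and 133 CPM. They were not particular to Tnmd C6 cells. Tnmd C6 cells had 598 CPM of Pdgfrl, 854 CPM of Cpz and 275 CPM of Kazald1, and cells with Gal 436, 887 and 271 CPM.

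Over all genes, 2654 reached at least 50 CPM and a UMI in at least 10% of cells in the higher group, with the 7 genes of the rule left out. Of these, 32 (1.21%) were at least 2-fold higher in Tnmd C6 cells and 165 (6.22%) at least 2-fold lower. The choice of cells used this contrast, and the shares are its background. Of all called genes 16.2% were higher. Scaling by TMM, which sets the bulk of genes level, gave 96 higher and 92 lower, 51.1% higher, and moved the median gene to 0.10. The 15 highest and 12 lowest genes by the naming rule kept their direction under all 16 alternatives, and 428 of 432 values stayed at least 2-fold.

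Cthrc1, a secreted protein made by collagen-producing cells after injury, was among the genes that stood out most. It had a UMI in 161 of the 170 cells (94.7%) and in 22.1% of other fibroblast barcodes. Per cell its median was 590 CPM (quartiles 270 and 836) in Tnmd C6 cells and 0 in others, where the upper quartile was 0 too. The summed level was 683 CPM in Tnmd C6 cells and 113 CPM in others, a ratio of 6.07 (95% interval 5.76 to 6.40). At 3000 UMIs per cell the share with a UMI was 74.1% in Tnmd C6 cells, 12.6% in other fibroblast barcodes and 0.541% in immune barcodes. Cthrc1 (ENSMUSG00000054196) lies on chromosome 15 at 39076932 to 39087121, plus strand (GRCm38).

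Pltp, which encodes a plasma protein that transfers phospholipids between lipoproteins, had 286 CPM in Tnmd C6 cells and 44.8 CPM in others, a ratio of 6.38 (95% interval 5.87 to 6.93). Its per-cell median was 232 CPM (quartiles 107 and 431) in Tnmd C6 cells and 0 in others. Thinned to 3000 UMIs it was seen in 53.5% of Tnmd C6 cells and 9.39% of others; its 13.5% in immune barcodes, where it summed to 132 CPM, shows that it is not a fibroblast-only gene. Pltp (ENSMUSG00000017754) lies on chromosome 2 at 164839518 to 164857711, minus strand.

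Gpx3, the secreted selenium-dependent glutathione peroxidase, was present in 169 of the 170 cells. Its per-cell median was 3651 CPM (quartiles 2867 and 4495) in Tnmd C6 cells and 538 (0 and 2048) in others, so that the lower quartile of Tnmd C6 cells lay above the upper quartile of the rest. The ratio of summed levels was 3.23 (95% interval 3.16 to 3.30). Cxcl12, a chemokine that retains CXCR4-bearing cells, had 380 CPM in Tnmd C6 cells and 92.9 CPM in others. Postn, the matricellular protein periostin, had 967 and 334 CPM. Both were seen in most Tnmd C6 cells, 94.1% for Cxcl12 and 89.4% for Postn, against 34.3% and 48.1% of others.

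The other genes of the naming rule that were higher had ratios from 2.26 to 4.11. Gdf15, a stress-induced TGF-beta family hormone, had 171 CPM in Tnmd C6 cells and 60.5 CPM in others. Aldh1l2, a mitochondrial folate enzyme, had 103 and 36.9 CPM. Lgr5, a receptor for R-spondins that amplifies WNT signals, had 63.2 and 26.1 CPM and was seen in 43.5% and 13.6% of cells. Ecm2, a matrix protein with leucine-rich repeats, had 310 and 137 CPM. Nkain4, Ces2g, Cgref1, C7 and C2 complete the set. Ces2g belongs to a carboxylesterase family with close copies, so its counts are less certain.

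**Figure D2:**
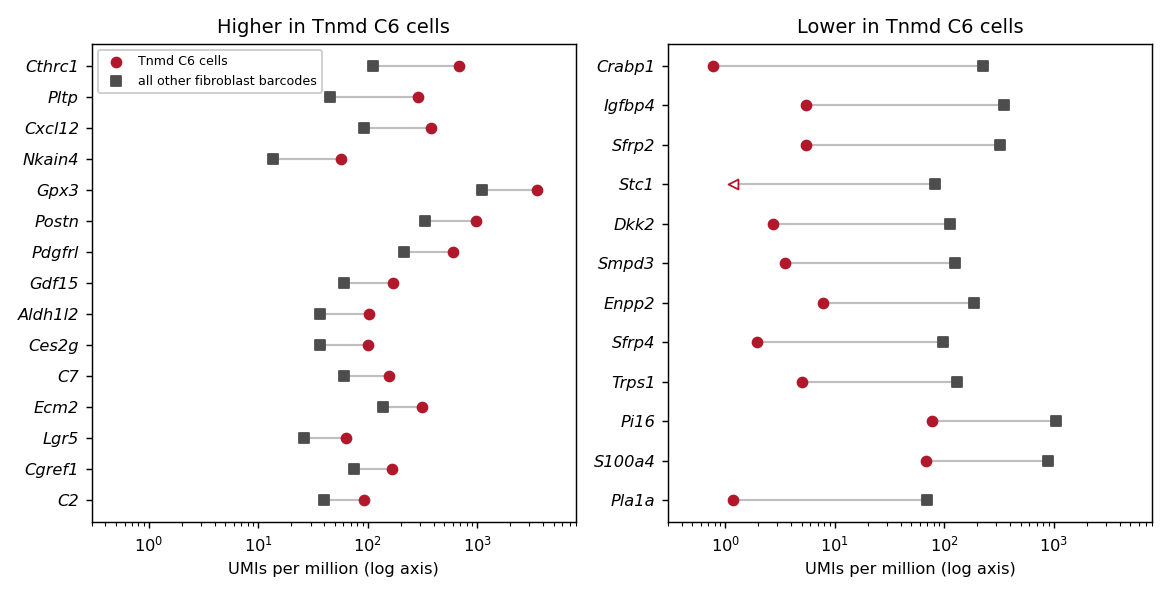
Summed level, in CPM on a log axis, of the 15 named higher genes (left) and 12 named lower genes (right) in Tnmd C6 cells (circles) and all other fibroblast barcodes (squares). The open triangle marks Stc1, with no UMI in Tnmd C6 cells, drawn at the level of 3 counts; Crabp1 shows the widest gap, at 0.78 and 228 CPM.

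Among lower genes the 170 cells had very few UMIs of several that mark other dermal cells. Most of the named lower genes did not reach the limit on level in Tnmd C6 cells, so they were called through the other barcodes. The upper limits on Dpp4, Coch and Grem1 also bear on genes of the cells they leave out. Low values can thus follow in part from the choice of cells and genes. Crabp1, a retinoic acid binding protein of papillary and follicle-associated fibroblasts, had 0.78 CPM in Tnmd C6 cells and 228 CPM in others, and a UMI in 1.18% of Tnmd C6 cells. Igfbp4, which binds insulin-like growth factors, had 5.46 CPM in Tnmd C6 cells and 353 CPM in others, 64.7 times lower. Sfrp2, a secreted WNT modulator, had 5.46 and 321 CPM. After thinning, Sfrp2 had a UMI in 0.588% of Tnmd C6 cells, against 29.2% of other fibroblast barcodes and 0.541% of immune barcodes. Its share in Tnmd C6 cells was thus close to that in immune barcodes. Before thinning its 14 UMIs lay in 2 of the 170 cells, and their source was not tested. Stc1, the hormone stanniocalcin, had no UMI in the 170 cells and 82.3 CPM in others, at least 70.3-fold lower when 3 counts over the group are taken as the floor. Dkk2, Smpd3, Enpp2, Sfrp4, Trps1 and Pla1a lay between 1.17 and 7.80 CPM in Tnmd C6 cells and between 69.1 and 189 CPM in others. Pi16 had 77.7 CPM in Tnmd C6 cells and 1047 CPM in others, and S100a4, a calcium-binding protein often used as a fibroblast mark, had 68.3 and 882 CPM. Some of these genes were high in groups within the other barcodes. Pi16 had 3027 CPM in cells with Dpp4 and Pi16, which were chosen by it. Crabp1 had 2190 CPM in cells with Coch, and Stc1 782 CPM in cells with Grem1 and Igfbp2. The 98 barcodes that failed only on Dpp4 had 230 CPM of Pi16 and 1.87 CPM of Crabp1.

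For gene lists, a member counted as measured with at least 20 CPM in either group. Among all 5377 such genes, 47 (0.874%) were at least 2-fold higher in Tnmd C6 cells and 433 (8.05%) at least 2-fold lower, with a median log2 fold of -0.31; under TMM the median was 0.05. Of the 5377, 1065 passed only through the other fibroblast barcodes, and 316 of the 433 lower genes were among them. Such a gene is low in Tnmd C6 cells by the way it passed, so counts of lower members support nothing about a list. Of 6 fibril-forming collagen genes 1, Col1a2, was at least 2-fold higher and none lower, with a median of 0.62. Of 25 genes of collagen maturation and crosslinking 1 was higher, Pcolce, which speeds removal of the C-propeptide, and none was lower, with a median of 0.30. Pcolce had 1273 CPM in Tnmd C6 cells and 622 CPM in others. Lox, the lysyl oxidase that crosslinks collagen, had 514 and 255 CPM and lay just under 2-fold. With TMM 7 of these 25 genes passed 2-fold upward. The TMM background for such counts was 129 of 5249 measured genes (2.46%) upward and 253 (4.82%) downward. Both collagen lists thus had medians above that of all genes under either scaling.

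Small leucine-rich proteoglycans, which bind collagen and set fibre diameter, had 2 of 9 measured members higher, Prelp and Ecm2, and none lower, with a median of 0.27. Prelp had 356 CPM in Tnmd C6 cells and 168 CPM in others. Among matrix proteases and inhibitors 3 of 26 were higher, Ctsk, Cpz and Cpxm2, while 2 passed downward, at a median of 0.35; under TMM 8 of 25 were higher. Ctsk, a lysosomal collagen-degrading protease best known from osteoclasts, had 3005 CPM in Tnmd C6 cells and 1445 CPM in others and was seen in all 170 cells. Serpine2, a serine protease inhibitor, was one of the lower members with 36.3 and 252 CPM. The elastic fibre list lay near the level of all genes. Its median log2 fold was -0.35, beside -0.31 for all genes, and under TMM these medians were -0.01 and 0.05. Of its 17 measured genes, 6 passed 2-fold downward under either scaling. In the main scaling 2 of these 6 passed the limit on level only through the other barcodes. No member passed upward, or 2 under TMM. Mfap5, a microfibril protein, had 44.5 CPM in Tnmd C6 cells and 465 CPM in others. Of 38 genes of protein folding and secretion in the endoplasmic reticulum none passed 2-fold in either direction, with a median of 0.03; under TMM the median was 0.40 and 3 were higher.

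Since Tnmd is a tendon gene, tendon markers were examined. Scx, the tendon lineage transcription factor, had no UMI in the 170 cells and 80 in other fibroblast barcodes, 1.39 CPM. Comp, a cartilage and tendon matrix protein, had none either, and 13 UMIs in others. Mkx, a further tendon transcription factor, had 19.1 CPM in Tnmd C6 cells and 21.1 CPM in others. Of 13 measured tendon and ligament genes other than Tnmd, 1 was higher, Cpxm2, and 3 were lower, Thbs4, Cilp and Col12a1. Their median of -0.07 turned to 0.30 under TMM. Cilp, a matrix protein of cartilage and dense connective tissue, had 22.6 and 179 CPM. Of 8 cartilage genes 6 had no UMI in Tnmd C6 cells, among them Col2a1. Scx, Comp and the cartilage genes were at or near 0 in other fibroblast barcodes too.

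C6 was accompanied by other complement genes, in both directions. C7, the next component of the membrane attack complex, had a per-cell median of 119 CPM (quartiles 46.9 and 245) in Tnmd C6 cells and 0 (0 and 93.1) in others, and a ratio of 2.56 (95% interval 2.30 to 2.84). C2, a protease of the classical pathway, had 92.9 CPM in Tnmd C6 cells and 40.1 CPM in others. C4b was also at least 2-fold higher, with 526 and 256 CPM, although its close copy C4a makes the count less certain. C3, the central component, was lower at 357 CPM in Tnmd C6 cells and 859 CPM in others. With C6 left out, 3 of 10 measured members passed 2-fold upward and 2, C3 among them, downward, and the median was 0.05, or 0.42 under TMM.

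WNT genes, which the title names, gave low values for several members. All 22 listed WNT targets and feedback genes summed to 765 CPM in Tnmd C6 cells and 1913 CPM in others. Ptgs2, which is also on the list of genes induced by NF-kB, gave 115 and 676 CPM of these sums. Much of the gap between the sums thus came from this 1 gene. Of the 15 measured, 1, Lgr5, was at least 2-fold higher and 10 lower, 8 of which passed the limit only through the other barcodes. Axin2, a widely used target, had 3.51 CPM in Tnmd C6 cells and 28.3 CPM in others, and a UMI in 5.29% and 21.3% of cells. Lef1, a transcription factor of the pathway, had no UMI in the 170 cells and 28.9 CPM in others, at least 24.7-fold lower. Wif1, a secreted inhibitor, had 0.39 and 68.6 CPM. The 34 listed WNT ligands and receptors summed to 339 CPM in Tnmd C6 cells and 692 CPM in others. Of the 10 measured none was higher and 5 were lower, all 5 having passed only through the other barcodes. Wnt5a had 1.95 CPM in Tnmd C6 cells and 68.5 CPM in others, Wnt2 1.17 and 35.1 CPM, and the R-spondin Rspo1 4.29 and 53.6 CPM. The 17 secreted WNT modulators summed to nearly the same level, 2483 CPM in Tnmd C6 cells and 2446 CPM in others. Of the 10 measured, 1, Cpz, was higher and 6 lower, or 3 and 5 of 9 under TMM. All 6, with Igfbp4, Wif1, Sfrp2, Sfrp4 and Dkk2 among them, passed only through the other barcodes. Several of these genes peaked in cells with Coch, with Grem1 and Igfbp2 or with Dpp4 and Pi16, which are all among the other barcodes.

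IL1 genes lay closer to the level of other fibroblasts. Of 9 measured genes of the IL1 family and its receptors 2 were lower, both through the other barcodes alone, and none higher, with a median of -0.63. Under TMM 1 was lower, with a median of -0.28. Il1r1, the receptor for IL1, had 46.8 CPM in Tnmd C6 cells and 75.4 CPM in others, a log2 difference of -0.63, and after thinning a UMI in 12.9% of Tnmd C6 cells and 21.5% of others. The 2 lower members were Il33, an alarmin stored in the nucleus, with 3.51 CPM in Tnmd C6 cells, 9.69 times lower than in others, and Il18, a cytokine of the same family, with a log2 fold of -1.07. Irak3, which dampens the pathway, had 33.2 and 70.5 CPM. Of 26 genes induced by NF-kB, 7 were lower and 2 higher, and the median of -0.22 turned to 0.25 under TMM. Icam1, an adhesion molecule, was higher at 391 CPM in Tnmd C6 cells and 182 CPM in others. Saa3 was the other higher member, but all of its 217 UMIs came from 1 cell. Cxcl1, a neutrophil chemokine, was lower at 214 CPM in Tnmd C6 cells and 964 CPM in others, and Ptgs2, the inducible prostaglandin synthase, at 115 and 676 CPM. Fibroblast chemokines had 6 of 11 measured members lower and 1, Cxcl12, higher, with a median of -1.23; under TMM 4 of 10 were lower and 1 higher.

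Lists of other dermal and fat-lineage fibroblasts are given by their sums over all listed genes, with the genes of the rule left out, and by counts. The upper limits on Dpp4, Coch and Grem1 bear on several of these lists. Papillary genes summed to 397 CPM in Tnmd C6 cells and 910 CPM in others, and of 11 measured none was higher, or 1 under TMM, and 8 were lower, 7 of them through the other barcodes alone. Genes of dermal papilla and sheath summed to 329 and 1177 CPM, and of 11 measured none was higher and 8 were lower, all 8 through the other barcodes alone. Reticular genes summed to 15742 CPM in Tnmd C6 cells and 13134 CPM in others, of which Gpx3 gave 3535 and 1095 CPM. Of 10 measured 1, Gpx3, was higher and 6 were lower, 2 of them through the other barcodes alone. The median log2 fold was -2.17 for the reticular list and -2.17 for the papillary list. The higher reticular sum thus does not hold for the typical member. Genes of interstitial progenitors summed to 7219 and 8759 CPM, with none of 19 higher and 7 lower, 4 of them through the other barcodes alone. Genes of committed preadipocytes summed to 2941 and 2158 CPM, with 2 of 15 higher, Pltp and Icam1. Another 3 were lower, all 3 through the other barcodes alone, and under TMM 4 of 14 were higher and 1 lower. Ebf2, a fat-lineage transcription factor, was one of the lower ones at 6.63 CPM in Tnmd C6 cells and 75.3 CPM in others. Pparg, the master regulator of fat cell formation, was low in both groups, at 3.51 and 1.51 CPM, and Adipoq, Plin1, Cidec and Dlk1 had no UMI in Tnmd C6 cells. Plin2, a lipid droplet protein found in many cell types, was higher at 65.6 CPM in Tnmd C6 cells and 29.7 CPM in others. The myofibroblast list had 2 of 15 members higher, Cthrc1 and Postn, and 7 lower, 6 of them through the other barcodes alone; under TMM 4 were higher and 5 lower. Acta2, smooth muscle actin, had 5.85 and 88.8 CPM; this direction holds with the Grem1 and Coch limits and turned to a log2 fold of 0.92 without the 3 upper limits.

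Markers of other cell types were present at different levels. The 11 immune genes summed to 9.76 CPM in Tnmd C6 cells and 31.9 CPM in others, with Ptprc, Cd3g, Itgam and Tyrobp at 0 in Tnmd C6 cells, and the 8 endothelial genes to 3.90 and 12.4 CPM. Keratinocyte genes summed to 594 CPM in Tnmd C6 cells and 2230 CPM in others, and Krt10, a keratin of differentiated epidermis, had a UMI in 64.1% and 50.3% of cells. Of the keratinocyte list 8 of 9 measured genes were at least 2-fold lower in Tnmd C6 cells. The part of such RNA in other results was not tested. Tnmd C6 cells were deeper than other fibroblast barcodes, with a median of 14714 UMIs (4143 to 35044) and 9943 UMIs, and had 12.7% and 15.5% ribosomal protein UMIs and 1.38% and 1.45% mitochondrial UMIs at the median. Among cells of 8000 to 20000 UMIs in both groups, 126 Tnmd C6 cells gave 33 higher and 133 lower genes, of which 25 and 111 were among the 32 and 165.

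Set against the 5 other groups by the same rule of level, share and fold, Tnmd C6 cells were nearest to cells with Gal, a neuropeptide gene. Of 2236 genes tested, 98 (4.38%) were higher and 50 (2.24%) lower than in cells with Gal. Against cells with Myoc the counts were 67 (2.35%) higher and 348 (12.2%) lower of 2853. Against cells with Grem1 and Igfbp2 they were 149 (5.42%) and 326 (11.9%) of 2748. Against cells with Dpp4 and Pi16 they were 108 (3.81%) and 409 (14.4%) of 2831. Against cells with Coch they were 386 (11.5%) and 1291 (38.6%) of 3343. Groups differ in size and depth, so these counts order them only roughly. Of the 170 cells 11 also met the Gal rule and 7 the Myoc rule.

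Among genes that differed from cells with Gal, Hmcn2, a matrix protein of the fibulin family, had 60.5 CPM in Tnmd C6 cells and 1.4 CPM in cells with Gal. Pltp had 286 and 26.8 CPM, Ptx3, a soluble pattern recognition protein, 190.0 and 18.1 CPM, and Gpx3 3535 and 461 CPM. Cygb, cytoglobin, had 186 and 7.6 CPM, the leading gene by log2 fold. Cthrc1 had 683 and 223 CPM, and Postn 967 and 145 CPM. Lower in Tnmd C6 cells were Crabp1, with 0.78 and 90.3 CPM, Gal itself, which chose the other cells, and S100a4, with 68.3 and 697 CPM. Pdgfrl, Cpz, Kazald1 and Lgr5 did not pass 2-fold between Tnmd C6 cells and cells with Gal; Lgr5 had 63.2 and 51.2 CPM.

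Other groups shared other parts of the pattern. Gpx3 had 3535 CPM in Tnmd C6 cells, 2903 CPM in cells with Myoc and 1585 CPM in cells with Dpp4 and Pi16. C7 had 157 CPM in Tnmd C6 cells, 134 CPM in cells with Myoc and 0.817 CPM in cells with Grem1 and Igfbp2. Cxcl12 had 380 CPM in Tnmd C6 cells, 193 CPM in cells with Myoc, 66.4 CPM with Gal and 10.6 CPM with Grem1 and Igfbp2. Of the 6 groups Tnmd C6 cells had the highest summed level of Cthrc1, Pltp, Gpx3, Postn, Cxcl12, C7 and Lgr5, and of Tnmd and C6 by choice. Tnmd itself had 456 CPM in Tnmd C6 cells, 144 CPM in cells with Gal and 101 CPM in cells with Myoc, and C6 363, 4.70 and 19.4 CPM.

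**Figure D3:**
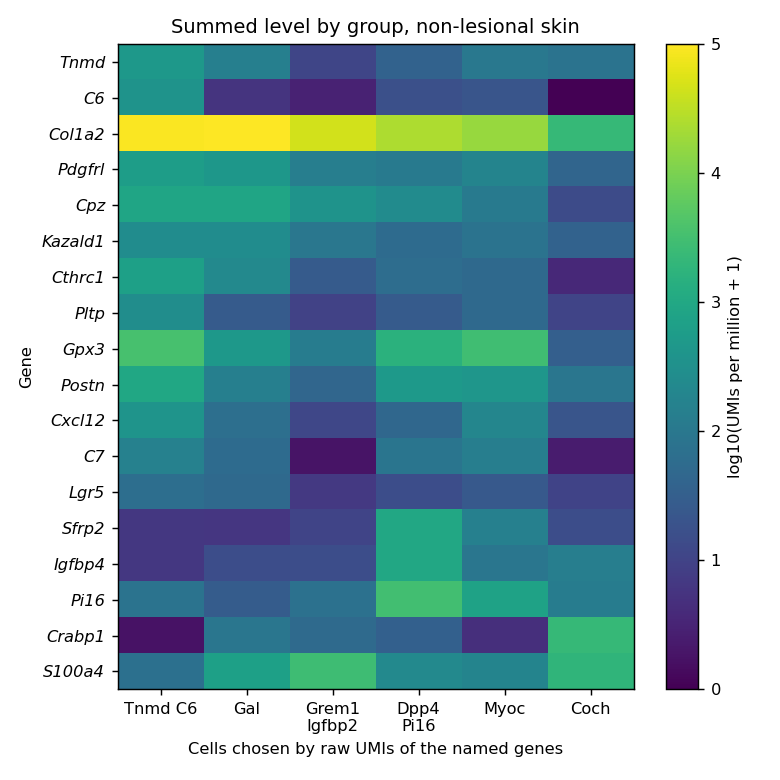
Summed level, as log10 of CPM plus 1, of 18 genes in Tnmd C6 cells and 5 other groups of fibroblast barcodes of non-lesional skin. Tnmd C6 cells and cells with Gal are alike for Col1a2, Pdgfrl, Cpz and Kazald1, and Gpx3 is high in Tnmd C6 cells, cells with Myoc and cells with Dpp4 and Pi16.

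The 170 cells were not uniform. Clustering of the fibroblast barcodes without the 7 genes of the rule placed 87 of them (51.2%) in a cluster of 326 cells led by Pltp, and 68 (40%) in a cluster of 389 cells led by Cthrc1 and Lgr5. The remaining 15 lay in 7 further clusters, 4 of them in a cluster led by Krt14, a keratin of basal keratinocytes, whose cells had a median of 26533 UMIs. Tnmd C6 cells made up 26.7% of the cluster led by Pltp and 17.5% of that led by Cthrc1. The clusters were built from the same cells and genes, so the following differences describe them and are no test.

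Of 2260 genes, 91 (4.03%) were at least 2-fold higher in Tnmd C6 cells of the cluster led by Pltp than in those of the cluster led by Cthrc1, and 11 (0.487%) lower. Ptx3 had 383 CPM in the first set and 20.1 CPM in the second, and Itih5, a hyaluronan-binding protein, 121 and 3.49 CPM. Hmcn2 had 114 CPM and 49.4% of cells in the first set and no UMI in the second. The chemokine Ccl2 had 856 and 74.2 CPM, Icam1 617 and 182 CPM, Cxcl1 323 and 103 CPM, and Lbp, which binds bacterial lipopolysaccharide, 428 and 77.7 CPM. Higher in the second set were Ctla2a, a cysteine protease inhibitor, with 162 CPM in the first and 984 CPM in the second, Gal with 5.05 and 50.6 CPM, Mfap4 with 178 and 551 CPM, and Lgr5 with 32.8 and 96.9 CPM. Cells of the first set had a median of 16.6% fibril-forming collagen and 13038 UMIs, and those of the second 25.8% and 16768 UMIs.

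Of the genes that were high in the 170 cells, some differed between the sets and some did not. Pltp had 420 CPM in the first and 176 CPM in the second, Cxcl12 558 and 226 CPM, and Postn 1242 and 778 CPM. Closer values were found for others. Tnmd had 472 CPM in the first and 468 CPM in the second, C6 415 and 338 CPM, Cthrc1 685 and 733 CPM, Gpx3 3920 and 3338 CPM, and Pdgfrl 566 and 656 CPM. Although its cluster is led by Cthrc1, the second set had nearly the same Cthrc1 level as the first.

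Ordered by their fibril-forming collagen share, the 170 cells differed in several named genes. In 4 bins of 42 or 43 cells, shares ran from 2.03 to 13.5%, 13.6 to 19.7%, 20.1 to 25.4% and 25.5 to 39.6%. Cthrc1 had 327, 684, 760 and 856 CPM from the lowest to the highest bin, and Cpz 462, 759, 987 and 1077 CPM. Pltp had 388, 418, 233 and 156 CPM, Cxcl12 562, 583, 285 and 176 CPM, and C3 672, 384, 252 and 217 CPM. Cxcl1 had 415, 377, 54.4 and 89.4 CPM. Tnmd showed no such order, with 406, 499, 444 and 467 CPM. Scaled by UMIs outside the fibril-forming collagens, Pltp had 430, 503, 302 and 219, so it was lower in the upper bins on this scale too. The cause of this order was not tested. Median depth was 11400, 13675, 16230 and 18103 UMIs over these bins and moved with the order; its part was not tested.

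**Figure D4:**
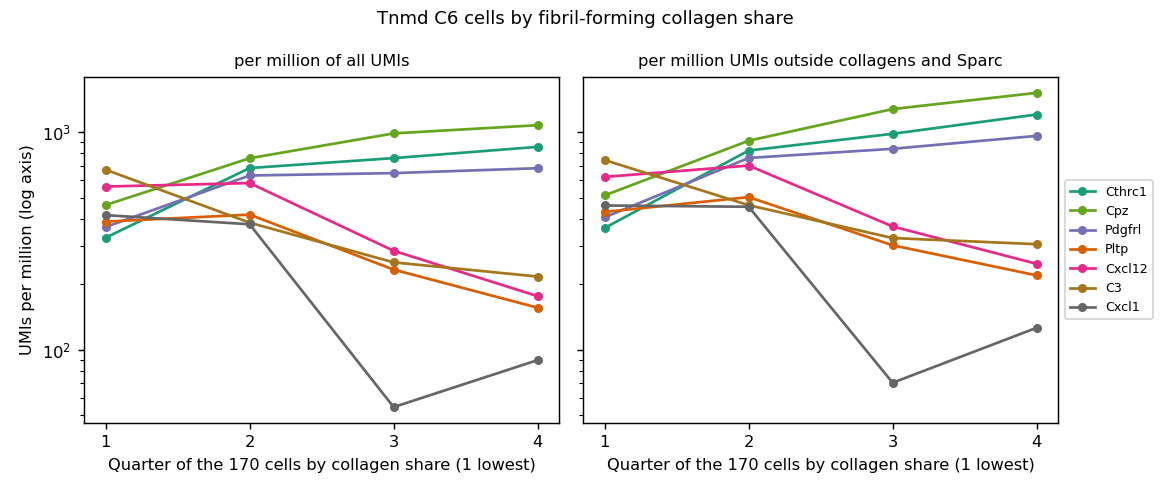
Summed levels of 7 genes, on a log axis, in 4 bins of the 170 Tnmd C6 cells by fibril-forming collagen share. Levels are scaled by all UMIs (left) and by UMIs outside the fibril-forming collagens (right). The title of the right panel names collagens and Sparc, but only fibril-forming collagens were left out of its total. Cthrc1, Cpz and Pdgfrl are higher and Pltp, Cxcl12, C3 and Cxcl1 lower in the upper bins on both scales.

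Cell-to-cell spread was taken over the 170 cells thinned to 3000 UMIs. For 1999 genes the median ratio of variance to mean was 1.07, and 101 genes were above 2. Col1a2 had 51.9, Col1a1 42.1 and Col3a1 13.8. Collagen genes varied together: Pearson's r over the 170 cells was 0.84 between Col1a1 and Col1a2 and 0.78 between Col1a2 and Col3a1. Col1a2 with Gpx3 gave -0.05 and Tnmd with C6 0.10. The rule sets lower limits on Tnmd and C6, so their value is shaped by the choice of cells and is not comparable with the others. These cells share 1 library, and the values are descriptions. Ccl7, a monocyte chemokine, had a ratio of 17.1, with a UMI in 58.8% of the thinned cells and up to 63 UMIs in 1 of them.

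Applied to all 3 libraries, the rule found 170 of 5087 fibroblast barcodes in non-lesional skin, 3.34%, none of 3987 at day 2 (3 counts would be 0.0752%, and the exact interval reaches 0.0925%), and 2 of 2430 at day 7, 0.0823% (95% interval 0.00997 to 0.297). Fibroblast barcodes of the wounds were deeper, with medians of 10081 UMIs in non-lesional skin, 28997 at day 2 and 27295 at day 7. More UMIs make upper limits harder to meet and lower limits easier. With only Tnmd and C6 asked for, at least 1 UMI each, 305 barcodes (6.00%) qualified in non-lesional skin, 0 at day 2 and 3 (0.123%) at day 7. Thinned to 3000 UMIs before the rule, 15 of 2502 fibroblast barcodes (0.600%) qualified in non-lesional skin, 0 of 1697 at day 2 and 0 of 1082 at day 7. Fewer such cells and less Tnmd and C6 RNA per cell cannot be told apart with these libraries, since the cells are found by that RNA.

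Tnmd and C6 differed between the libraries. Tnmd had a UMI in 26.0% of fibroblast barcodes in non-lesional skin, 1.10% at day 2 and 15.8% at day 7, and summed to 98.9, 0.730 and 20.9 CPM. C6 had a UMI in 7.57%, 0.401% and 0.329%, and summed to 31.3, 0.149 and 0.245 CPM. Tnmd was thus seen again at day 7, whereas the C6 intervals of day 2 (0.0885 to 0.236 CPM) and day 7 (0.145 to 0.388 CPM) overlapped. The 2 cells at day 7 had 12930 and 11136 UMIs, 3 and 4 of Tnmd and 1 and 2 of C6. The first had 15 UMIs of Pltp, none of Cthrc1 and 2 of Gpx3, and the second 5, 14 and 21.

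Genes that were high in the 170 cells followed different courses over all fibroblast barcodes of the 3 libraries. Cthrc1 had 137 CPM in non-lesional skin, 308 at day 2 and 699 at day 7, and Postn 361, 475 and 4059 CPM. Cxcl12 had 105, 594 and 257 CPM. Pltp had 55.1, 3.71 and 39.6 CPM, Gpx3 1199, 539 and 806 CPM, and C7 65.3, 3.50 and 0.886 CPM. Pdgfrl had 230, 14.0 and 109 CPM, Cpz 419, 23.4 and 71.5 CPM, and Kazald1 139, 2.67 and 9.67 CPM. At day 7 the levels of Cthrc1 and Postn were above those of non-lesional skin while those of Tnmd and C6 were below. Each value is 1 library.

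**Figure D5:**
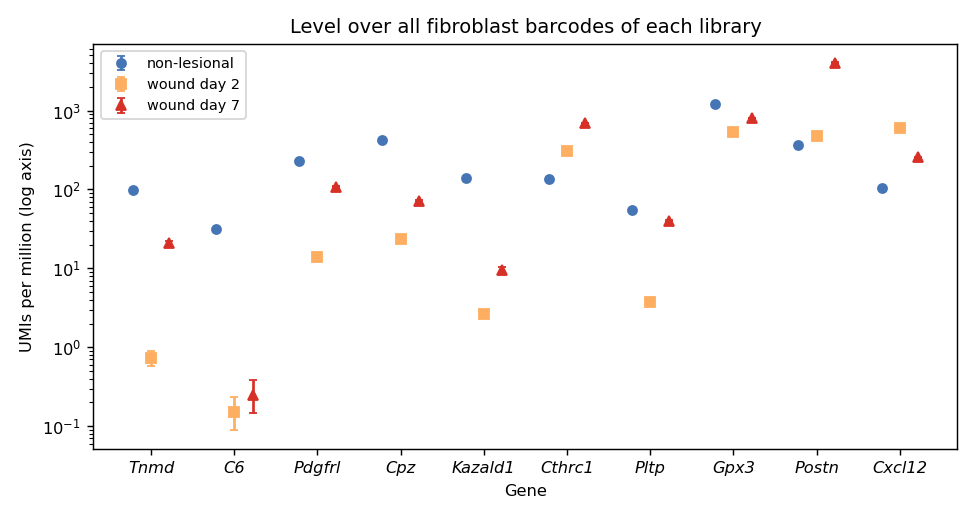
Summed level over all fibroblast barcodes of each library, in CPM on a log axis, with exact 95% counting intervals that are mostly smaller than the symbols. C6 lies at 31.3, 0.149 and 0.245 CPM in non-lesional skin, at day 2 and at day 7, while Postn reaches 4059 CPM at day 7.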

How the data were processed

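Counts are raw UMIs per gene and barcode, as deposited by the authors after cell calling. The submitters' processing notes name Cell Ranger 3.0.2, Seurat 3.0 and mm10, whereas per the file headers Cell Ranger 5.0.0 wrote the tables; the difference was not resolved. The members and gene lists were chosen with earlier results of these data known. UMIs were summed per group and scaled to CPM, and 5 CPM were added to both sides before a log2 fold was taken. A gene was called at 2-fold with at least 50 CPM and a UMI in at least 10% of cells of the higher group, and a list member with at least 20 CPM in either. Cells are not replicates, so no test was run. Intervals are Clopper-Pearson for shares, Poisson for sums and conditional binomial for ratios, at 95%. Genes were named by rule: the 15 highest and 12 lowest called genes, the 4 list members with the widest log2 fold in each of 39 lists, and a fixed set with the label's marks. Mitochondrial, ribosomal, haemoglobin and predicted genes were left out. Members of lists and groups named outside this rule were chosen after their values were seen.

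Fibroblast barcodes were clustered without the 7 genes of the rule and mitochondrial genes (10000 per cell, log, 2000 variable genes, 30 components, 20 neighbours, Leiden resolution 1, seed 0; scanpy 1.11.5, leidenalg 0.10.2). Doublets were kept. Scrublet scores, at 0.8% per 1000 barcodes, would have removed 848 of 10297 barcodes, 11 of them (6.47%) Tnmd C6 cells and 456 (9.27%) other fibroblast barcodes. GENCODE M21 (GRCm38) held 27645 of the 27998 identifiers. Python 3.11.15, numpy 2.4.6, scipy 1.17.1, pandas 2.3.3 and, for TMM, edgeR 4.0.16 in R 4.3.3 were used. Folds were tested on simulated counts. Alternatives are given in the closing section. 1 member of the complement list is counted but not reported here by name.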

Additional observations from a re-analysis of the deposited data

How the results depend on the processing

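No paired analysis was possible because each condition has 1 library. The number of Tnmd C6 cells was 278 without the upper limits on Dpp4, Coch and Grem1 and 268 without that on Dpp4 alone, an alternative chosen after seeing the data. Genes at least 2-fold higher in Tnmd C6 cells, 32 as reported, numbered 62 against cells with no Tnmd and no C6, 96 with TMM factors, 98 with median-of-ratios factors, 55 at 10 CPM, 56 with no limit on level and 66 per UMIs outside collagens and Sparc, the last also chosen after seeing the data. Genes at least 2-fold lower, 165 as reported, numbered 92 with TMM factors, 92 with median-of-ratios factors, 488 at 10 CPM and 765 with no limit. Of the 32 higher and 165 lower genes, 22 and 118 were called after thinning to 3000 UMIs, 24 and 134 with the mean of each cell's CPM, 24 and 162 at a Tnmd limit of 4, and 32 and 92 with TMM. The share of called genes that were higher was 16.2% as reported, 51.1% with TMM, 51.6% with median-of-ratios and 31.7% outside collagens, where the median gene lay at -0.30, 0.10, 0.11 and -0.09. The Tnmd C6 share in non-lesional skin was 0.600% after thinning and 6.00% when only Tnmd and C6 were asked for, and at day 7 it was 0 after thinning. Without the 3 upper limits the log2 folds of Acta2, Tagln, Tpm2 and Des turned to 0.92, 0.11, 0.32 and 0.33; without the Dpp4 limit alone Acta2, Tagln and Tpm2 stayed at -3.19, -3.00 and -2.63. The cause was not tested. Of 1248 list counts under alternatives 1102 were within 1.5 times. With 2562715 UMIs in Tnmd C6 cells, a gene of 1.17 CPM corresponds to 3 counts, and lower levels could not be resolved.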

Other observations

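The remaining gene lists add the following, by the same rule of at least 20 CPM in either group. Over all 5377 measured genes the median log2 fold was -0.31, with 0.874% higher and 8.05% lower. Under TMM 2.46% were higher and 4.82% lower. Of the 433 lower genes 316 passed only through the other barcodes, so counts of lower members support nothing about a list. Of 34 genes of TGF-beta and BMP signalling, 12 were at least 2-fold lower in Tnmd C6 cells, 9 of them through the other barcodes alone. Gdf15 was the 1 higher member, and the median was -0.55. Under TMM 8 of 33 were lower and 3 higher, with a median of -0.20. Bmp4, a BMP ligand, had 9.76 CPM in Tnmd C6 cells and 86.3 CPM in others, and Inhba, a subunit of activin, 1.17 and 40.8 CPM. Of 16 genes of axon guidance and nerve growth 9 were lower and none higher, or 7 lower and 1 higher under TMM, and the median was -1.06; 8 of the 9 passed only through the other barcodes. Nrp2, a semaphorin receptor, had 6.24 CPM in Tnmd C6 cells and 72.6 CPM in others. Sema3e, a secreted guidance cue, had 0.39 CPM, which was 1 UMI, in Tnmd C6 cells and 36.2 CPM in others.

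Genes of PDGF, FGF and VEGF signalling, with Pdgfra left out, had 2 of 14 members higher, Pdgfrl and Angptl4. Another 5 were lower, 3 of them through the other barcodes alone. The median was -0.66, or -0.01 under TMM, which gave 2 higher and 3 lower. IGF genes had 1 of 15 higher, Kazald1, and 4 lower, all 4 through the other barcodes alone. Their median of -0.24 turned to 0.12 under TMM. Collagens outside the fibril-forming group had 3 of 13 lower, Col23a1, Col4a5 and Col12a1, and none higher, at a median of 0.02. All 3 passed through the other barcodes alone. Transcription factors of fibroblasts had 6 of 22 lower, 3 of them through the other barcodes alone, and none higher. Adhesion genes had 3 of 18 lower, all 3 through the other barcodes alone, and 1 higher, Icam1. The medians of these 2 lists, -0.37 and -0.21, turned to 0.01 and 0.19 under TMM, with 3 of 22 and 3 of 17 lower. Immediate early and heat shock genes, which tissue digestion is known to raise, had 4 of 24 lower and none higher, at a median of -0.16; under TMM 1 was lower and the median turned to 0.22. Adipogenic regulators had 1 of 13 lower, Ebf2, and none higher. Hyaluronan genes had 2 of 7 lower, Has1 and Itih5, and proliferation genes 1 of 2. Of the lists for pericytes, Schwann cells and melanocytes, and skeletal muscle, 2, 1 and 1 genes were measured, and Des, a muscle filament, was the lower member of the first and last.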
